A study of Mus musculus with 9 samples.

Results

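The 10 genes described here are Igf2, Igf2r, Peg3, Peg10, Sgce, Mest, Dlk1, Grb10, Cdkn1c and Phlda2, a set of imprinted genes with roles in growth, among 18193 genes with a probe set on the array. They were chosen by symbol: a probe set counted where the platform annotation gave only that symbol, and the brightest of a gene's probe sets over all 9 arrays stood for it. A probe set annotated to both Igf2r and Airn was thereby left out. The 9 arrays hold total RNA of mouse ES cells that carry a transgene for always-active protein kinase A (PKA), a kinase normally switched on by cyclic AMP, under the control of doxycycline. Cells differentiated for 0.5, 1.5, 2.5 or 3.5 days (D0.5 to D3.5) in serum medium that lacked leukemia inhibitory factor (LIF), either with no doxycycline (Dox-) or with it at 1 µg/ml (Dox+). Undifferentiated cells were kept with LIF and doxycycline at 1 µg/ml. The labels used here name neither the cell line nor the promoter behind the transgene, and do not say whether doxycycline turns the kinase on or off. The arms are therefore called by their medium. With 1 array for each day in each medium, a single-day value sets 2 arrays against each other without replicates, and precision is limited by how few arrays there are. Signals are on the authors' linear scale with a trimmed mean of 100. Differences are Dox- minus Dox+ values of log2(signal + 16), in which dim genes differ by less than their true change. Arrays of this kind do not tell the parental alleles apart.

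Imprinted genes are transcribed from the allele of one parent, through DNA methylation laid down in the germline at control regions that can serve several genes at a time. Igf2, Peg3, Peg10, Sgce, Mest and Dlk1 are expressed mainly from the paternal allele, and Igf2r, Cdkn1c, Phlda2 and, in most tissues, Grb10 from the maternal one. Igf2, a secreted growth factor, promotes growth of the embryo and placenta. Igf2r carries it to the lysosome for breakdown, and Grb10, Cdkn1c and Phlda2 restrain growth. In the mouse embryo many of these genes are transcribed strongly in mesoderm, extraembryonic tissue and placenta.

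RefSeq promoter windows of assembly GRCm38.p6, from 250 bases before a gene's start to 50 after it, were at hand for 7 of the 10 genes, in 13 windows. They are shown for the cyclic AMP response element, TGACGTCA, to which the PKA substrate CREB binds, for the shorter site TGACG within it, which the full element holds on both strands, and for TGCCGC, the motif that the imprint-protecting factor ZFP57 binds when methylated. Both strands were searched for each. The full element was found in 1 of the 13 windows, that of Peg3, at position -178, and in 1.79% of all 32851 windows. The shorter site was found in 7 of the 13 and in 20.8% of all windows, and the ZFP57 motif in 4 of the 13 and in 11.6% of all. Of those 4, 2 are Mest windows that overlap almost wholly and hold the same motifs. Capitals mark the full element in the Peg3 window, the shorter sites in the windows of Igf2, Phlda2 and Igf2r, and the ZFP57 motifs in that of Mest. Printed are the Peg3 window, the 1 with the full element, those of the growth factor, its receptor and a growth-restraining gene with the shorter site, and a Mest window for the ZFP57 motif; of the Igf2 windows, the one richest in CpG is given.
Peg3 promoter (chr7:6730370-6730669, minus strand): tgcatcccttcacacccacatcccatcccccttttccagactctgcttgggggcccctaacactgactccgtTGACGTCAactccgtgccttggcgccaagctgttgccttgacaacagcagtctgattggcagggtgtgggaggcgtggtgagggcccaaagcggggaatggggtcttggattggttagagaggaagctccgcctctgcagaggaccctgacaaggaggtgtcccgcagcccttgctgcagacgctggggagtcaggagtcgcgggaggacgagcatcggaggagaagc
Igf2 promoter (chr7:142658755-142659054, minus strand): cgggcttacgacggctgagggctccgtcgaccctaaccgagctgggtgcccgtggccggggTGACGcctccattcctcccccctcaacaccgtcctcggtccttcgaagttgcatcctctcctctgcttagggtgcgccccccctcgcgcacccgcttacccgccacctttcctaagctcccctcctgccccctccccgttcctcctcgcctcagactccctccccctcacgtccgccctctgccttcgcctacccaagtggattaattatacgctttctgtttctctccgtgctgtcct
Phlda2 promoter (chr7:143502475-143502774, minus strand): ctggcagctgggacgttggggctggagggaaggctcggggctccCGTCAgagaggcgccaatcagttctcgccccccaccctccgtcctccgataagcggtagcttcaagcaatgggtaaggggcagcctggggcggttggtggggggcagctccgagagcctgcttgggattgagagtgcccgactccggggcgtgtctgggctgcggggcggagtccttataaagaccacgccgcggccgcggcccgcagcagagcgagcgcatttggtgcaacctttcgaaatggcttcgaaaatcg
Igf2r promoter (chr17:12769657-12769956, minus strand): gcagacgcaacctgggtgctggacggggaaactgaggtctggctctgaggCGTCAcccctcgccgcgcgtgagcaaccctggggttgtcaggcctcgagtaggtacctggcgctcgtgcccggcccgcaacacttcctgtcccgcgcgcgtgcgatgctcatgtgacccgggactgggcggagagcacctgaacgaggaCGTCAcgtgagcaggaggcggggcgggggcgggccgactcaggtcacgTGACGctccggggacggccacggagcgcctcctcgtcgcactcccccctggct
Mest promoter (chr6:30737800-30738099, plus strand): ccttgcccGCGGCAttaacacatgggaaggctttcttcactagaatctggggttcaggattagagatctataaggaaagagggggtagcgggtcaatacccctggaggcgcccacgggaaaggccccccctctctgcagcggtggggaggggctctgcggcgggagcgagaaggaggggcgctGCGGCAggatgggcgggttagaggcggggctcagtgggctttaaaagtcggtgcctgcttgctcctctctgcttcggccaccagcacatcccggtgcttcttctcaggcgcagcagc
The Igf2 window above, picked for its CpG, holds 24 CpG pairs. Those of Phlda2 and Igf2r hold 26 and 34, and those of Peg3 and Mest 13 and 17, against a median of 7 over all windows. Of the windows not printed, those of Igf2 hold 2, 14 and 7, of Grb10 45 and 9, of Dlk1 9 and of Mest 8 and 17. A match of letters describes the window and is neither a bound site nor a cause of any value below.

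Per array, 41.6% to 44.2% of genes reached a signal of 50. The 3'/5' ratio of Actb, which reports on intact RNA, was 1.63 in Dox- and 1.94 in Dox+ cells on D3.5, within the range of 1.60 to 1.98 of all arrays; its part in the D3.5 values was not tested. In undifferentiated cells 12 of 14 pluripotency genes reached 50, with Pou5f1 (Oct4) at 2263 and Sox2 at 2582. On both D0.5 arrays 13 of 14 did, with Pou5f1 at 2614 in Dox- and 2724 in Dox+ cells. The count and Pou5f1 thus differed little between undifferentiated cells and those of D0.5, but other genes of the list did differ. Klf4 read 2989 in undifferentiated cells, and 783 in Dox- and 723 in Dox+ cells of D0.5. Otx2 read 162, 1116 and 1031 in the same order.

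On D0.5 none of the imprinted genes was 2-fold apart between the media, and on D3.5 all 10 were, 9 higher and 1 lower in Dox- cells. On D0.5, 0 of the 10 were at least 2-fold higher or lower, where 0.066% and 0.044% of all 18193 genes were. On D1.5, 2 were higher (Igf2 and Peg3) and 1 lower (Phlda2), against 0.846% and 0.753% of all genes. On D2.5, 4 were higher (Igf2, Peg3, Sgce and Phlda2) and 1 lower (Grb10), against 2.1% and 2.52%. On D3.5 the 9 higher genes stood against 3.17% of all genes, and the lower one, Grb10, against 2.64%. Among the 8716 genes bright enough to be tested, those shares were 4.13% and 4.8%. The median difference of the 10 genes was -0.11, -0.13, 0.47 and 2.02 on D0.5, D1.5, D2.5 and D3.5, and that of all genes lay between -0.02 and 0.03. With a pseudocount of 64 in place of 16, 7 of the 10 stayed at least 2-fold apart on D3.5, and Peg10 (0.70), Mest (0.93) and Grb10 (-0.52) did not. With the mean of all probe sets of a gene, 9 of the 10 did. Both D3.5 signals were under 50 for Grb10 (12.5 in Dox- and 45.6 in Dox+) and for Peg10 (49.0 and 5.6). From D2.5 to D3.5, 8 of the 10 read at least 2-fold higher in Dox- cells, against 2.37% of all genes. In Dox+ cells the same step took 2 genes up (Peg3 and Sgce; 0.715% of all genes) and Grb10 down (0.412%). The difference between the media was nearer 0 on D3.5 than on D2.5 for Peg3 and Grb10, and for Igf2, Sgce and Phlda2 it was already 3.34, 1.61 and 2.14 on D2.5. Set against undifferentiated cells, 9 of the 10 were at least 2-fold higher in Dox- cells of D3.5, as were 8.23% of all genes. In Dox+ cells of D3.5, Peg3 and Sgce were higher (6.37% of all genes) and Cdkn1c lower (4.05%). On D0.5, Grb10 and Cdkn1c were already at least 2-fold above undifferentiated cells in both media, as were 0.813% of all genes in Dox- and 0.753% in Dox+ cells. In bulk RNA, more cells of a type and more RNA per cell cannot be told apart.

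**Figure D1:**
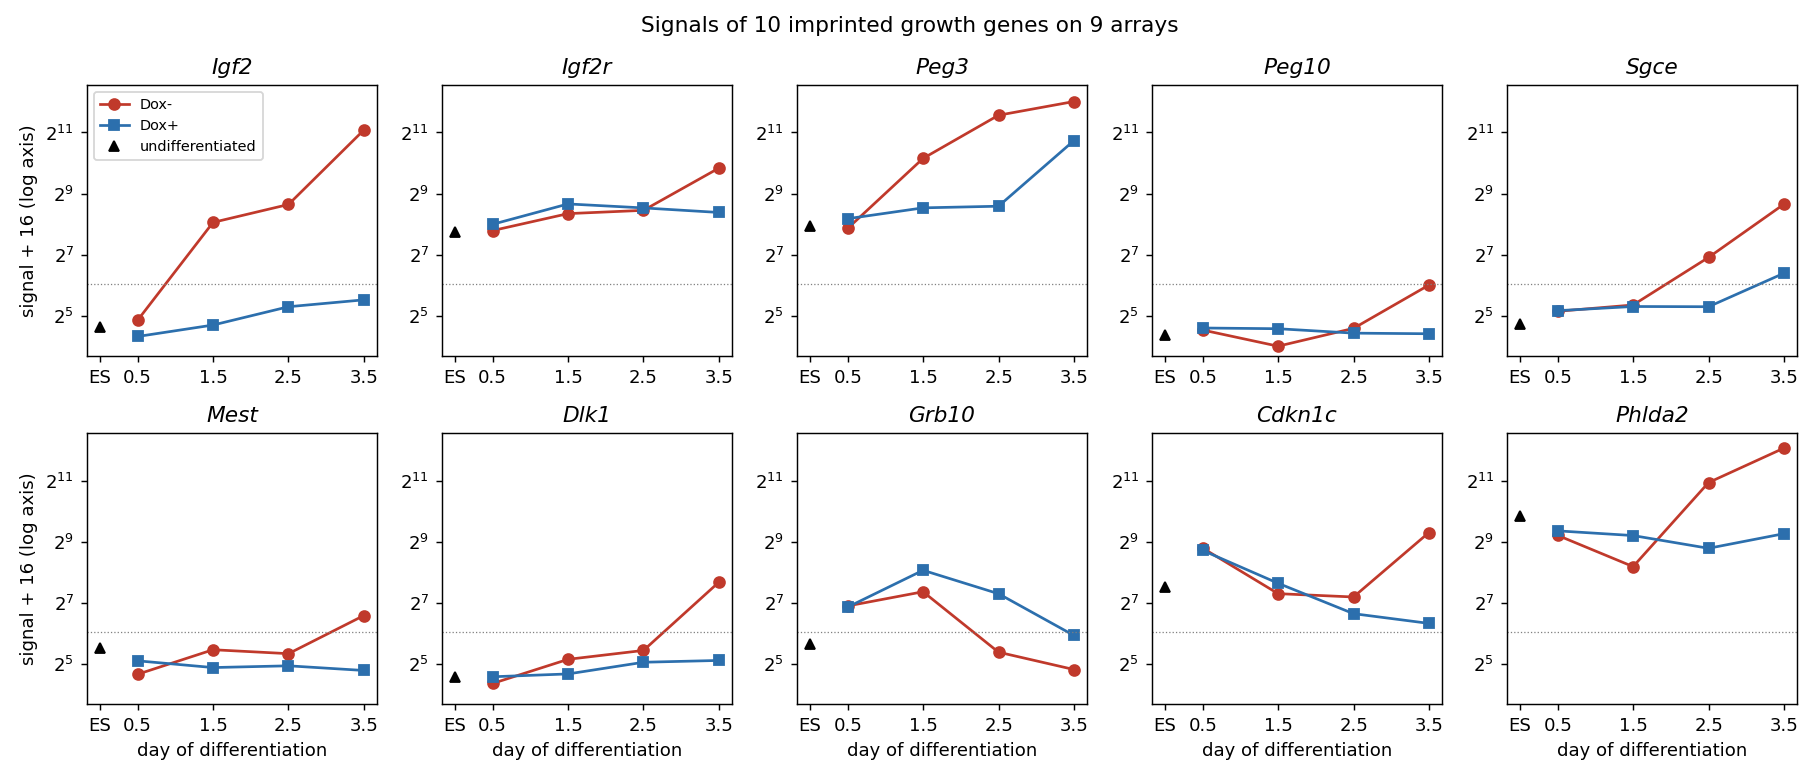
Signal plus 16 (log axis) of each gene's brightest probe set against the day of differentiation; red circles are Dox- arrays, blue squares Dox+ arrays and the black triangle undifferentiated cells (ES), 1 array a point. The dotted line marks a signal of 50; Igf2 on D3.5 reads 2151 in Dox- and 30.5 in Dox+ cells.

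**Figure D2:**
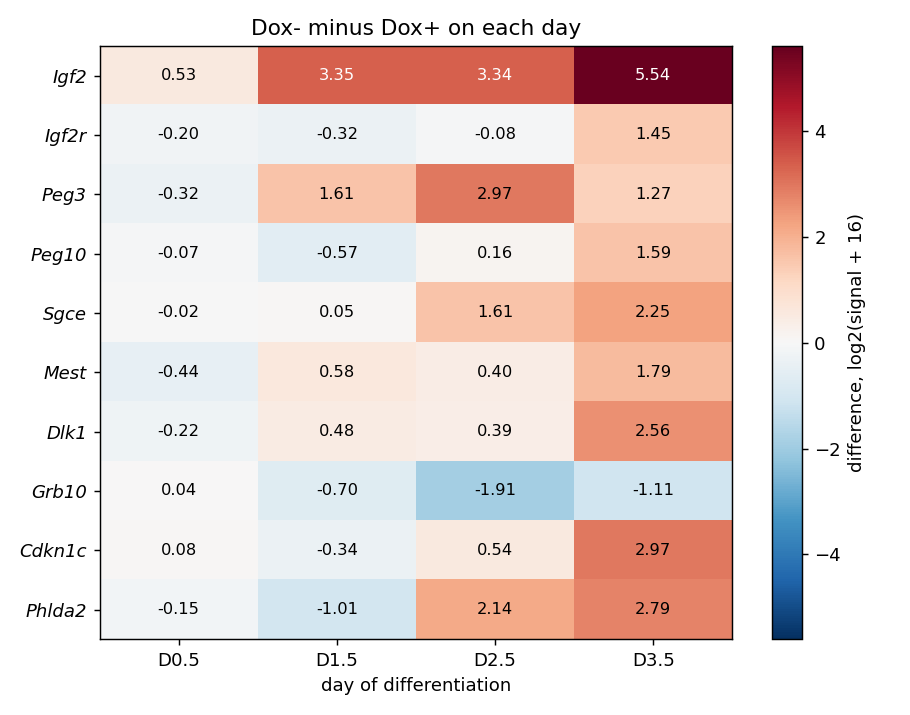
Dox- minus Dox+ difference of each gene on each day, on the log2(signal + 16) scale, red where Dox- was higher and blue where it was lower; each cell is a difference of 2 single arrays. The D0.5 column lies between -0.44 and 0.53 and the D3.5 column holds 9 values of at least 1.27, with Grb10 at -1.11.

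Igf2, the growth factor, passed a signal of 50 in Dox- cells alone. In order of day it read 13.3, 252, 386 and 2151 on the Dox- arrays, against 4.3, 10.3, 23.8 and 30.5 on the Dox+ arrays and 9.0 in undifferentiated cells. From D1.5 on, every Dox- array lay above every Dox+ array, and no Dox+ array reached 50. The differences were 0.53, 3.35, 3.34 and 5.54, so the step to D1.5 and the step from D2.5 to D3.5 (2.43 in Dox-) carried most of the gain. A second, dim probe set read 31.4 against 1.6 on D3.5 and at most 6.0 on the other arrays.

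Igf2r, the receptor that clears the factor, was bright in every sample and parted the media on the last day only. It read 207, 311, 336 and 899.5 on the Dox- arrays, against 241, 391, 356 and 319 on the Dox+ arrays and 201 in undifferentiated cells. The first 3 days lay within 0.32 of each other between the media, all slightly lower in Dox-, and D3.5 was 2.82-fold higher in Dox-. The next probe set gave the same order, with 373 against 162 on D3.5 (a difference of 1.13, beside 1.45 for the brighter one).

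Dlk1, a membrane protein of the Delta family that restrains adipocyte maturation, passed a signal of 50 on 1 array. It read 4.8, 19.9, 27.9 and 189.7 on the Dox- arrays, against 8.2, 9.8, 17.6 and 19 on the Dox+ arrays and 7.8 in undifferentiated cells. The D3.5 Dox- array stood apart from the other 8, with a D3.5 difference of 2.56. Dlk1 did not pass the filter on low signals and was not tested.

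Cdkn1c, the cyclin-dependent kinase inhibitor p57, first moved alike in both media. Its signal was 428, 143, 131 and 616 on the Dox- arrays, against 405, 185, 84.8 and 64.9 on the Dox+ arrays and 167 in undifferentiated cells. Within 0.5 days it was higher than in undifferentiated cells by 1.28 in Dox- and 1.21 in Dox+ cells, and by D1.5 both arms were back near that level. Over the last day it gained 2.10 in Dox- cells, while the same step in Dox+ cells was -0.32, on the log2 scale. On D3.5 the media were 9.49-fold apart.

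Phlda2, a pleckstrin homology protein that limits placental growth, changed order between the media. It read 576, 276, 1939 and 4248 on the Dox- arrays, against 639.8, 574, 426 and 599 on the Dox+ arrays and 899 in undifferentiated cells. On D1.5 the Dox- array was the lowest of all 9, and on D2.5 and D3.5 the Dox- arrays were the 2 highest. The differences were -0.15, -1.01, 2.14 and 2.79, a 2.08-fold higher signal in Dox+ on D1.5 and a 7.09-fold higher one in Dox- on D3.5.

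Grb10, an adaptor that damps insulin and IGF receptor signals, was the 1 gene of the set with lower signal in Dox- cells late in the course. It read 104, 149.5, 26.2 and 12.5 on the Dox- arrays, against 101, 253, 142 and 45.6 on the Dox+ arrays and 35.3 in undifferentiated cells. Both arms were highest on D1.5. After it the Dox- arrays of D2.5 and D3.5 lay below every other array, and the differences were 0.04, -0.70, -1.91 and -1.11. The other 2 probe sets of Grb10 stayed at or below 11.5 on all arrays, so the values rest on 1 probe set.

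Peg3, a zinc finger protein, was brighter late in the course in both media, and from an earlier day in Dox- cells. It read 218, 1123, 3008 and 4107 on the Dox- arrays, against 275, 356, 370.4 and 1688 on the Dox+ arrays and 229.9 in undifferentiated cells. The D3.5 Dox+ signal lay between those of D1.5 and D2.5 in Dox-. Differences were -0.32, 1.61, 2.97 and 1.27, widest on D2.5 at 8.12-fold. The next 2 probe sets put the D2.5 difference at 3.69 and 3.28 and the D3.5 one at 1.90 and 2.11, and the 2 dimmest stayed at or below 4.3.

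Sgce, which encodes epsilon-sarcoglycan, and Peg10, derived from a retrotransposon and needed for the placenta, lie head to head and share a control region. Sgce read 19.9, 25.4, 105 and 389 on the Dox- arrays, against 20.4, 24.0, 23.8 and 68.9 on the Dox+ arrays and 10.7 in undifferentiated cells. The media lay within 0.05 of each other on D0.5 and D1.5, and Dox- was higher by 1.61 on D2.5 and 2.25 on D3.5. Its dimmer probe set gave 0.75 and 1.20 on those days. Peg10 read 7.5, 0.3, 8.4 and 49.0 on the Dox- arrays, against 8.6, 8.2, 5.9 and 5.6 on the Dox+ arrays and 5.2 in undifferentiated cells. Only the D3.5 Dox- array stood above the others, just under the minimum of 50, and Peg10 was not tested.

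Mest, a member of the alpha/beta hydrolase family, passed a signal of 50 on the same array alone. It read 9.6, 28.6, 24.8 and 80.7 on the Dox- arrays, against 18.7, 13.8, 15.0 and 11.9 on the Dox+ arrays and 30.2 in undifferentiated cells. Its D3.5 difference was 1.79. Mest was not tested either.

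In tests over all 8716 genes, Phlda2 and Sgce were higher in Dox- cells late in the course under all 11 alternatives tried, and the calls of Igf2 and Grb10 hung on the settings. This late fit estimates a single Dox- minus Dox+ value for D2.5 together with D3.5, blocks on day, and uses the 2 earlier days for the spread alone. It was chosen with earlier results of these data known, so its p-values describe these arrays. The signal filter, which asks for 50 or more on 2 or more of the 9 arrays, kept 7 of the 10 genes. Of these 3 were called higher and 1 lower, where 2.83% and 4.35% of all tested genes were. Igf2 passed the filter through Dox- arrays alone, so its inclusion required a difference, and Sgce passed through 2 Dox- arrays and 1 Dox+ array.

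In the late fit Phlda2 gave 2.47 ± 0.31 (SE, 2 days; limma adjusted p = 0.00772) and Sgce 1.93 ± 0.21 (limma adjusted p = 0.00541). Grb10 fell, at -1.51 ± 0.28 (limma adjusted p = 0.0243). Igf2 gave 4.44 ± 1.00 with a limma adjusted p = 0.0449, in a fit that counts its D1.5 difference as spread, and against Dox+ signals that were all under 50. Its value was 3.45 with a pseudocount of 64 (limma adjusted p = 0.035) and 2.57 with the mean of its probe sets (0.0805). Both Phlda2 and Sgce were called in all 11 alternatives (limma adjusted p of at most 0.0445 and 0.0356). Grb10 was called in 7 of the 11 and Igf2 in 4. Without D0.5 the adjusted p of Igf2 was 0.108 and that of Grb10 0.0785. Without D2.5 they were 0.0577 and 0.119, with Igf2 at 5.54, and without D3.5 that of Igf2 was 0.258, at 3.34. Grb10 also missed the threshold with a pseudocount of 64 (-0.86, limma adjusted p = 0.069) and with the mean of its 3 probe sets (-0.37, 0.264).

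Peg3 (2.12 ± 0.55, limma adjusted p = 0.0668), Cdkn1c (1.75 ± 0.48, 0.0758) and Igf2r (0.68 ± 0.32, 0.244) did not pass. Peg3 passed in 1 of the 11 alternatives, without D1.5 (limma adjusted p = 0.0209). It gave 1.27 without D2.5 (limma adjusted p = 0.315) and 2.97 without D3.5 (0.0627). With D2.5 left out the late value is that of the single D3.5 pair, 2.97 for Cdkn1c (limma adjusted p = 0.00122) and 1.45 for Igf2r (0.0147), and these p-values assume that the lone pair varies like the other days.

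Taken over the 4 days, blocked by day, the media gave 0 calls in 8716 genes by limma (0%), and 3 of the 7, Igf2, Peg3 and Grb10, had an unadjusted p under 0.05, as did 11.8% of all tested genes. Igf2 differed by 3.19 ± 0.72 (SE, 4 days; limma adjusted p = 0.416), with Dox- higher on 4 of 4 days. Peg3 differed by 1.38 ± 0.47 and Sgce by 0.97 ± 0.42, higher on 3 of 4 days each. Grb10 gave -0.92 ± 0.30. A steady change of the difference with day was called for 0 genes, and 4 of the 7 (Igf2, Igf2r, Phlda2 and Sgce) had an unadjusted p under 0.05, against 8.44% of all. That of Igf2 was 1.5 ± 0.27 per day (limma adjusted p = 0.367) and that of Phlda2 1.20 ± 0.40 (0.569).

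Between D0.5 and D3.5, with the medium as a block, Peg3, Sgce and Igf2 rose. Peg3 rose by 3.34 ± 0.67 (SE, 2 media; limma adjusted p = 0.0203), Sgce by 2.36 ± 0.59 (0.037) and Igf2 by 3.70 ± 1.02 (0.0479). The 3 higher calls among 7 stood against 11.8% of all tested genes, and 0 lower against 10.2%. The Igf2 value averages 6.21 in Dox- and 1.20 in Dox+ cells, whereas Peg3 gave 4.14 and 2.55 and Sgce 3.49 and 1.22. In Dox+ cells Igf2 read 4.3 on D0.5 and 30.5 on D3.5, both under 50, and it passed the filter through Dox- arrays alone. Grb10 (-1.50 ± 0.43, limma adjusted p = 0.0523), Igf2r (1.21 ± 0.42, 0.0897), Phlda2 (1.38 ± 0.90, 0.3) and Cdkn1c (-0.94 ± 0.74, 0.388) did not pass. Of 7 alternatives, 6 called Peg3, 3 called Sgce and 1 called Igf2.

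**Figure D3:**
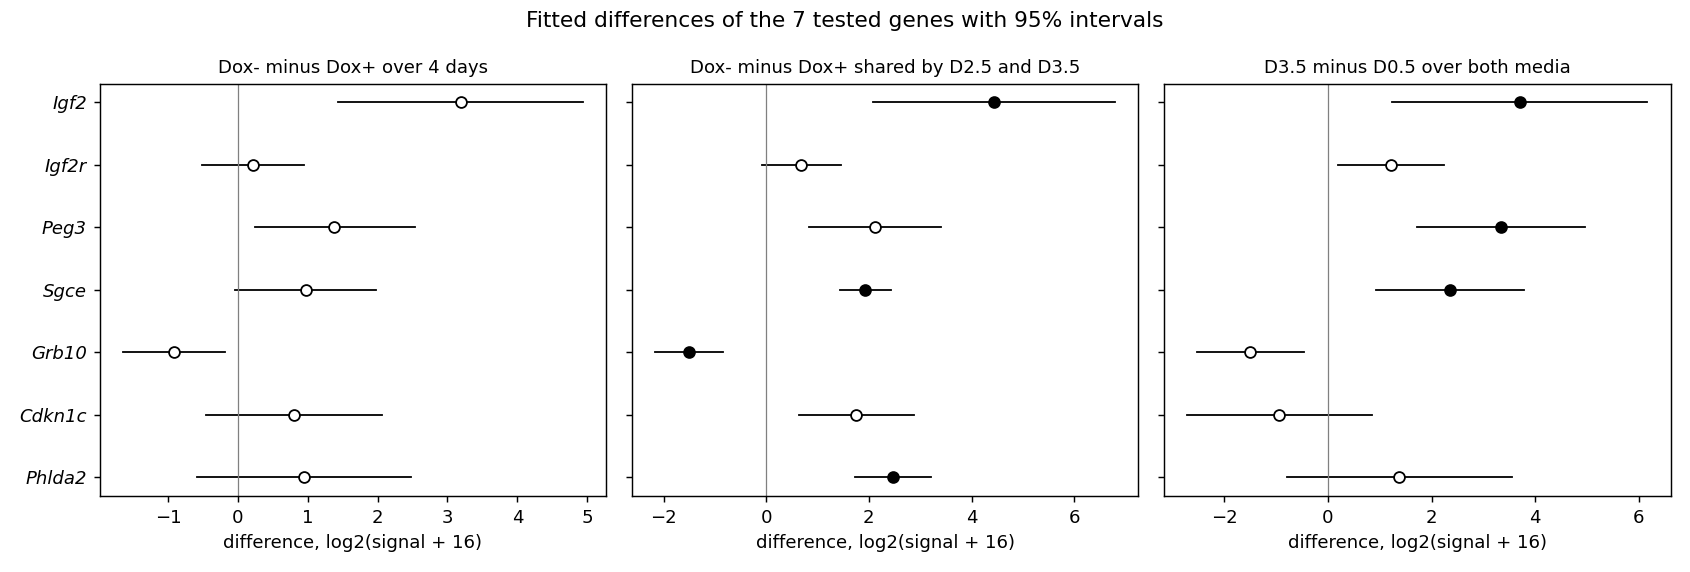
Fitted differences of the 7 tested genes on the log2(signal + 16) scale, with lines for the 95% confidence interval; filled points had a limma adjusted p under 0.05. Phlda2, Sgce, Igf2 and Grb10 are filled in the middle panel, and 0 genes in the left one.

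The 10 genes have 26 neighbours with a probe set in their imprinted clusters, chosen by textbook cluster. Of these 10 were under 50 on all 9 arrays, where a 2-fold difference can hardly be seen, and 15 were tested. Of the 26, Dox- exceeded Dox+ 2-fold or more on D3.5 for 2 and fell short of it by as much for 1, and the median difference was 0.18. The D3.5 shares of all genes were 3.17% and 2.64%. The higher ones were Asb4, an ankyrin repeat gene of the Peg10 and Sgce cluster, and Airn, the noncoding RNA that runs antisense to Igf2r. Asb4 read 6.6, 10.0, 428 and 1847 on the Dox- arrays, against 6.4, 10.0, 10.4 and 86.0 on the Dox+ arrays. Calcr, the calcitonin receptor gene of the same cluster, went the other way, with 26.9, 182, 41.2 and 11.7 on the Dox- arrays against 23.9, 147, 196 and 161 on the Dox+ arrays. Both were called in the late fit, Asb4 at 4.13 ± 0.17 (limma adjusted p = 0.000224) and Calcr at -2.28 ± 0.23 (0.00382), as was Ppp1r9a, a neurabin gene, at -0.78 ± 0.16 (0.0314). These 3 calls among 15, 1 higher and 2 lower, stand beside 2.83% and 4.35% of all tested genes.

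Airn read 8.0, 10.2, 27.1 and 170 on the Dox- arrays, against 7.7, 11.4, 3.9 and 11.7 on the Dox+ arrays and 6.1 in undifferentiated cells. It was singled out after its values were seen. Its 1 high array, D3.5 Dox-, is also the one on which Igf2r was highest. This was not particular to Igf2r, as every other gene of the 10 but Grb10 was highest on that array too. In the cluster of Dlk1, the maternally expressed noncoding RNAs Meg3 and Rian were bright throughout. Meg3 read 1615, 2583, 1568 and 2400 on the Dox- arrays, against 1537, 2705, 2576 and 2611 on the Dox+ arrays and 1291 in undifferentiated cells. Meg3 and Rian rose between D0.5 and D3.5 (0.66 ± 0.18 and 0.93 ± 0.18; limma adjusted p = 0.0494 and 0.0184), and their media lay -0.12 and 0.07 apart on D3.5, where Dlk1 was 2.56 apart. A day earlier, on D2.5, they read lower in Dox- cells, by differences of -0.71 for Meg3 and -0.64 for Rian, as did Mirg, another noncoding RNA there (-0.86). Kcnq1ot1, the noncoding RNA that silences the paternal copies of Cdkn1c and Phlda2, read 285, 266, 234 and 218 on the Dox- arrays and 195, 173, 184 and 244 on the Dox+ arrays. H19, the partner of Igf2, was not analysed here.

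**Figure D4:**
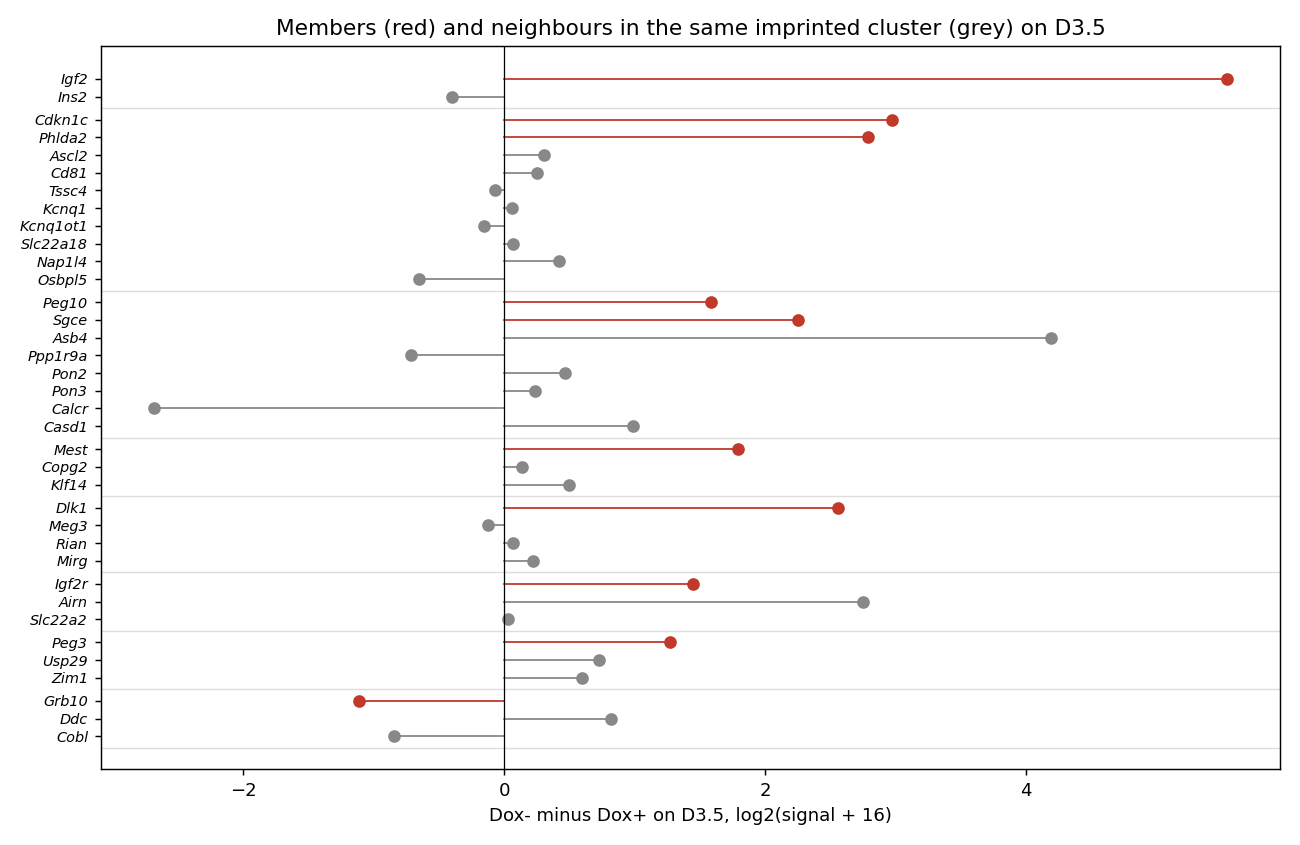
Dox- minus Dox+ difference on D3.5, on the log2(signal + 16) scale, for the 10 genes (red) and 26 neighbours (grey), grouped by imprinted cluster; each point is a difference of 2 single arrays. In the cluster of Cdkn1c and Phlda2 the 8 neighbours lie between -0.65 and 0.42.

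The 51 other imprinted genes with a probe set, the neighbours included, had a median difference of 0.07 on D3.5. Of them 4 were 2-fold or more up and 4 down in Dox-, beside 3.17% and 2.64% of all genes. Of the 32 tested, the late fit called 2 higher and 4 lower, beside 2.83% and 4.35% of all tested genes, and the comparison over 4 days 0. The 3 with the largest values over the 4 days were Asb4 and Calcr, described above, and Dcn, a proteoglycan gene (-1.18 ± 0.43). Dcn was among the 4 lower calls of the late fit, and it passed the signal filter through Dox+ arrays alone. Between D0.5 and D3.5, 6 of the 32 rose and 3 fell, beside 11.8% and 10.2% of all tested genes. Ndn, the necdin gene of the Prader-Willi cluster, rose by 1.75 ± 0.27 (limma adjusted p = 0.0106) and read 891 in Dox- and 402 in Dox+ cells on D3.5.

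Of 16 tested factors that protect or set imprints, 9 fell and 0 rose between D0.5 and D3.5, where 10.2% and 11.8% of all tested genes did. The late fit called 3 lower (Dnmt3a, Dnmt3b and Hells) and 0 higher, beside 4.35% and 2.83%. The 3 largest over the 4 days, none of them called there, were the genes of the de novo methyltransferase family, Dnmt3l (-0.89 ± 0.35), Dnmt3a (-0.72 ± 0.26) and Dnmt3b (-0.56 ± 0.26). Zfp57, whose product binds the motif shown above, read 57.2 and 58.1 on D0.5 in Dox- and Dox+ and at most 14.1 on any later array.

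In the IGF axis, Igfbp4, an IGF binding protein, was called higher in Dox- by the late fit (2.41 ± 0.38, limma adjusted p = 0.014), and Irs4, an adaptor of the receptor, lower (-2.09 ± 0.38, 0.0222), of 17 tested genes; 6 of the 17 rose and 0 fell between D0.5 and D3.5, beside 11.8% and 10.2% of all tested genes. Igf1r, the receptor that answers to Igf2, read 384 in Dox- and 458 in Dox+ cells on D3.5, and the protease gene Htra1 gave 1.18 ± 0.32 and was not called. Of 18 tested partners of the 10 genes, the late fit called 1 higher, the cyclin gene Ccnd2 (2.48 ± 0.34, limma adjusted p = 0.00877), and 2 lower, Ccne1 and the Grb10 relative Grb7. In both lists these late calls stand beside 2.83% of all tested genes called higher and 4.35% called lower. Phlda1, a relative of Phlda2 (1.65 ± 0.49), and Cdkn1a, the p21 relative of Cdkn1c (0.67 ± 0.45), were not called. Between D0.5 and D3.5, 2 of the 18 rose, the Notch receptor genes Notch2 and Notch3, and 0 fell, again beside 11.8% and 10.2%.

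Markers of other cell types moved on the same arrays. The summed signal of 19 mesoderm genes was 362, 1508, 9745 and 10280 in order of day in Dox- cells and 329, 408, 456 and 2722 in Dox+ cells. In the late fit, 7 of the 13 tested were called higher and 0 lower, where 2.83% and 4.35% of all tested genes were. The same shares apply to the late calls of the lists below. The 3 largest over the 4 days were Aplnr, Kdr and Fli1, of which the late fit called Kdr alone. The sum of 18 extraembryonic endoderm genes lay between 1172 and 4807 on the Dox- and between 1177 and 2148 on the Dox+ arrays. Here 4 of 12 were called higher and 0 lower. The largest of this list over the 4 days were Pdgfra and Gata6, both called in the late fit, and Sox17, which was not. Of that list Afp, Ttr, Apoa1, Apoa2 and Gata4 were under 50 on all arrays. The 13 trophoblast genes summed to between 228 and 8204 on the Dox- and 211 and 2459 on the Dox+ arrays, with 2 of 5 called higher (Cdx2 and Tfap2c) and Eomes not, while Elf5, Krt7, Ascl2, Tpbpa and Tead4 stayed under 50. Of the sum on D3.5 in Dox- cells, 2609 and 3004 came from the keratin genes Krt8 and Krt18, which other epithelia also express and which the late fit did not call (limma adjusted p = 0.0862 and 0.441). Plac1, a placental gene, read 750.1 in Dox- and 10.7 in Dox+ cells on D3.5. The 12 fibroblast genes summed to between 128 and 1791 on the Dox- and 143 and 574 on the Dox+ arrays, with 2 of 4 called higher (Col1a2 and Pdgfrb) and 1, Dcn, lower. Col3a1, Postn, Lum, Fap, Lox and S100a4 stayed under 50. The 14 pluripotency genes, all of them tested, summed to 2856 in Dox- and 9032 in Dox+ cells on D3.5. Of the 14, 5 were called lower, among them Utf1, Pou3f1 and Dppa5a, and 2 higher, Klf4 and Tbx3. Pdgfra, Eomes, Hand1 and Gata4 stand in 2 of these lists each. Dcn and Ascl2 are also among the other imprinted genes, and Zfp42 is also among the factors that protect or set imprints. Among the called markers, no Dox+ array reached 50 for Kdr, Tbx20, Isl1, Lama1, Cdx2, Tfap2c, Col1a2 and Pdgfrb. For Dcn no Dox- array did. These genes thus passed the signal filter only with help of the medium where they were high, so their calls are not independent of it. The part of these cell types in the values of the imprinted genes was not tested.

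Among all tested genes, those most like each imprinted gene over the 9 arrays were found by Pearson's r on the log2(signal + 16) scale. The 9 arrays share the course of differentiation, so high values are common and carry no p. Igf2 was matched most closely by Zfp711 (r = 0.998), Bmp2 (0.982) and Igfbp4 (0.976), and Sgce by Pcsk5 (0.989), Nkd1 (0.987) and Asb4 (0.987). Igf2r was nearest to Pcgf5 (0.99), Dync1i2 (0.98) and Kcp (0.98), and Peg3 to Ist1 (0.993), Gxylt1 (0.986) and Dnajc10 (0.985). Grb10 followed Wt1 (0.982), Lrpprc (0.964) and Mysm1 (0.962). The value of r takes no account of the size of a change. Ist1 read 589 in undifferentiated and 835 in Dox- cells of D3.5, where Peg3 read 229.9 and 4107. Wt1 was dim, under 50 in undifferentiated cells and on both D3.5 arrays. Cdkn1c lay nearest to Ift140 (0.966), Tbrg1 (0.953) and Fam122b (0.949), and Phlda2 to Ifitm1 (0.956), St6galnac4 (0.955) and N4bp2 (0.95). Within the set, Peg3 and Sgce were most alike (r = 0.892), followed by Igf2 and Peg3 (0.884). Grb10 ran against Phlda2 (-0.83), and the values of Cdkn1c with the other genes lay between -0.191 and 0.466.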

How the data were processed

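The authors deposited 1 table of linear intensity values for 45101 probe sets on 9 arrays. GCOS, the Affymetrix software, produced them per the submitters' processing notes; the sources used here do not give its version or background correction. Per the labels the signals were scaled to an average of 100, and on each array the mean trimmed by 2% at both ends came to 100.0. No further normalization was applied.

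Of the probe sets, 34945 have 1 gene symbol, and 34741 of these were matched through gene IDs to the RefSeq table of GRCm38.p6 and took its symbol. Those with several symbols were not used. Values are log2(signal + 16). The 8716 genes that reached 50 on 2 or more arrays were tested with limma 3.58.1 in R 4.3.3 (lmFit and eBayes, trend on) on the 8 differentiating arrays. Days stood in for repeats of the media (3 residual degrees of freedom) and media for repeats of the days, so p-values measure the spread between these arrays, which nothing says came from separate cultures. The change per day had 4 residual degrees of freedom. A call required a p under 0.05 after Benjamini-Hochberg adjustment. The fits were also run on simulated data with known changes and independent noise. That run cannot show whether days serve well as repeats, since its changes followed the fitted design.

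The 10 genes and all lists were chosen with earlier results of these data known. All 10 were named on every array, with the 3 most like genes for each tested one and the 3 largest tested genes of each list; other genes were chosen after their values were seen. Alternatives changed the pseudocount, filter, scaling, probe sets, variance trend, block and days.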

Additional observations from a re-analysis of the deposited data

Results flagged for a closer look

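For 4 genes the D3.5 minus D0.5 values of the media had opposite signs, each from single arrays, and the differences were not tested on their own. Cdkn1c alone was far from 0 in Dox+ cells. Cdkn1c gave 0.51 in Dox- and -2.38 in Dox+ cells, a gap of 2.89 on the log2(signal + 16) scale. Phlda2 gave 2.85 and -0.09 (gap 2.94), Mest 1.92 and -0.31 (2.23), and Peg10 1.47 and -0.19 (1.66), the Dox- value first. In Dox+ cells Phlda2 thus lay near 0, and Mest and Peg10 were under 50 on both days. The steady change of the media's difference with day was tested for Cdkn1c and Phlda2 and was not called (limma adjusted p = 0.628 and 0.569).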

How the results depend on the processing

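The comparison of media over 4 days and the change per day called 0 genes under all 11 and all 10 alternatives run for them; the change per day was not run without a block. The late fit called 626 genes, between 228 (without D0.5) and 791 (without D1.5) when 1 day was left out, and 414 with no replicate block for the day; 320 of those 414 were among the 626, and 4 of the imprinted genes were called with the block and 4 without. Between D0.5 and D3.5, 1917 genes were called, and between 1469 and 1968 under the alternatives, and with no replicate block for the medium 0 of the imprinted genes was called, against 3 with it. With a pseudocount of 1, the imprinted genes at least 2-fold apart numbered 1 in place of 0 on D0.5 (Igf2, dim on both arrays) and 5 in place of 3 on D1.5. At that pseudocount, 41 of the 80 differences from undifferentiated cells were at least 2-fold, against 27. No direction of a called gene turned under any alternative; of those not called, Igf2r without D3.5 read -0.08 over the late days and -0.20 in the comparison over 4 days, and the change per day of Peg3 -0.17 without D0.5. Signals near background limit Peg10, Mest, Dlk1 and, late in the course, Grb10.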
